A study of Mus musculus with 19 samples.

Results

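The 10 endothelial and blood-brain barrier genes described here are Cldn5, Pecam1, Cdh5, Flt1, Tek, Slco1a4, Abcb1a, Mfsd2a, Slc2a1 and Ocln, chosen by name and read from the raw counts by their Ensembl identifiers. All 10 were found among 48709 counted genes, and the lowest raw count of any of them in any library was 95, for Ocln. Endothelial cells line the brain capillaries and are sealed to each other by tight junctions, so that many solutes cross through transporters in their membranes. Adherens junctions and the receptors for VEGF and the angiopoietins keep these cells together and responsive, while efflux pumps return drugs and toxins to the blood. The hippocampus depends on this barrier for its supply of glucose and lipids.

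RNA of the microdissected CA1 region of the hippocampus was sequenced in 19 libraries from mice aged 7 months. WT control (n = 6) were littermates without the transgenes, APP control (n = 6) were APPPS1-21 mice given control oligonucleotides, and APP anti-miR-mix (n = 7) were APPPS1-21 mice given a mix of inhibitors of 3 microRNAs (miR-146a-5p, miR-148a-3p, miR-181a-5p). The APPPS1-21 line carries human APP with the Swedish mutation under the Thy1 promoter, which is active in neurons and not in endothelium. Every group received lipid nanoparticles injected into the dorsal hippocampus, so no group shows uninjected tissue. The titles of the WT libraries also hold the words anti-miR-mix, and the study's account that WT mice received control oligonucleotides was followed.

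The libraries held 19362343 to 37018917 counted reads. Values below are normalised read counts, that is, raw counts divided by the size factor of the library, unless another scale is named. Counts assigned to mouse Thy1, a part of the transgene cassette, lay between 18117 and 20734 in WT control and between 36153 and 62866 in the 13 transgenic libraries, so every library fell on the side its label gives. Xist was at 19.1 or lower and the Y-linked Ddx3y at 749 or higher in all 19 libraries. Ttr, a choroid plexus gene, stood at 1443 (WT control 5) and 1084 (APP anti-miR-mix 6), its highest values. One library stood apart in the vascular genes themselves: APP control 5 had the highest value of all 19 libraries for 6 of the 10 genes, and the differences of these genes between APP control and WT control are given with and without it. Nothing in the labels says that the replicates were prepared independently beyond being separate samples, so p-values measure the spread between these libraries.

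Levels between genes were compared per length, as TPM (transcripts scaled to a fixed sum per library) over annotated exonic bases. In WT control, Slc2a1 was highest at 74.2 ± 6.41 TPM (SD, n = 6), followed by Cldn5 at 53.5 ± 8.20 TPM, and the ranges of these 2 genes did not overlap. Mfsd2a at 26.2 ± 3.35 TPM and Slco1a4 at 25.8 ± 5.49 TPM could not be ordered, since their ranges overlapped. Abcb1a lay at 13.7 ± 1.65 TPM and Flt1 at 11.5 ± 0.588 TPM. Tek (9.52 ± 0.985 TPM), Pecam1 (8.89 ± 0.950 TPM), Cdh5 (7.64 ± 0.981 TPM) and Ocln (5.98 ± 1.32 TPM) formed the low end, and each overlapped its neighbour in the order. Slc2a1 is also made by astrocytes, so its level in bulk tissue is not that of endothelium alone. In bulk RNA, fewer cells of a type and less RNA per cell cannot be told apart.

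The first comparison asked how the genes differ between APPPS1-21 and WT mice that both received control oligonucleotides. An adhesion gene and a growth factor receptor gene, Cdh5 and Flt1, were higher in APP control, by 1.31-fold and 1.23-fold. All 10 genes had a fitted difference above 0, with a median log2 fold change of 0.29 beside -0.01 over all genes, but 8 did not pass the test. Without APP control 5 the median was 0.15, with 9 of 10 above 0 and 1 called. By DESeq2 at an adjusted p under 0.05 over 19297 tested genes, 2 of the 10 were called higher and 0 lower, where 3.66% of all tested genes were called higher.

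**Figure D1:**
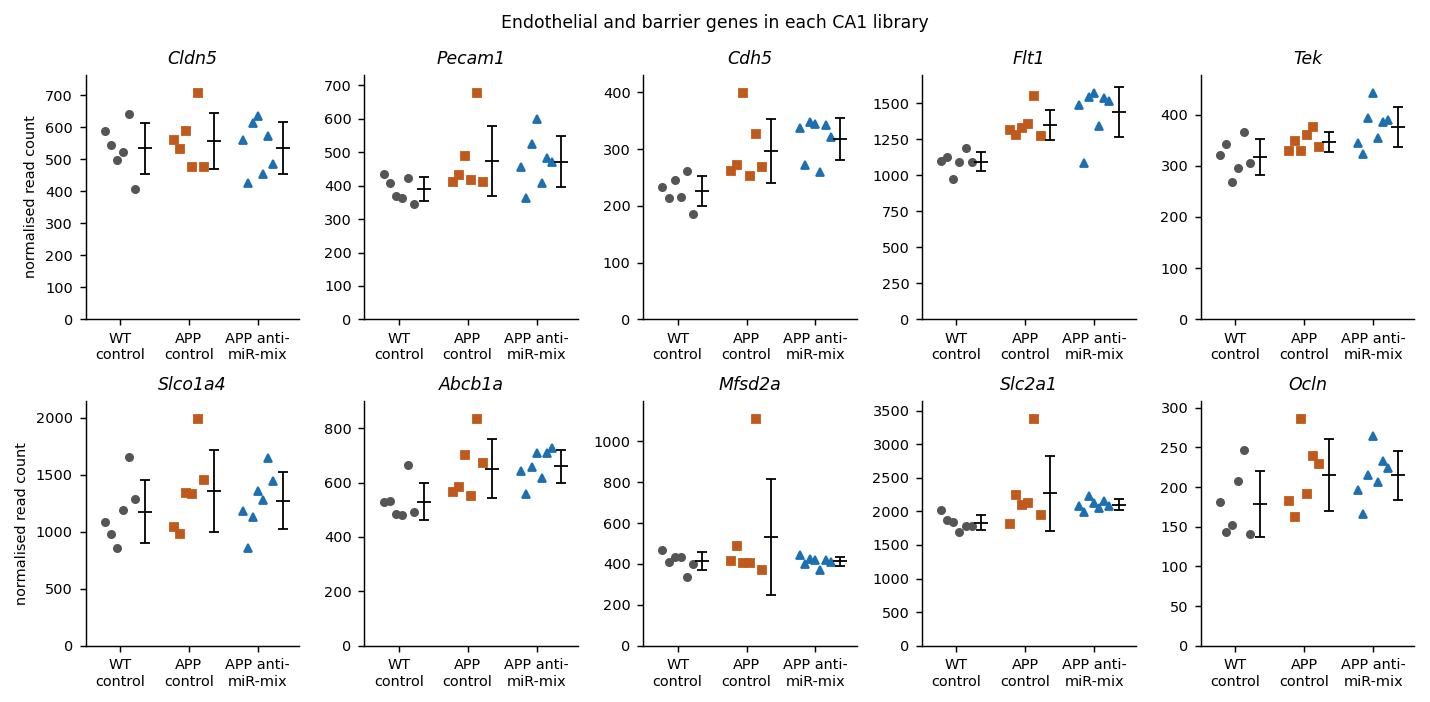
Normalised read counts (vertical axes, linear, from 0) of the 10 genes in each library of WT control (circles), APP control (squares) and APP anti-miR-mix (triangles), with the mean and SD of each group as a bar to the right. For Flt1 the 6 APP control libraries lie above every WT control library, and a single APP control library at 1110 sets the spread of Mfsd2a.

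Cdh5 encodes VE-cadherin, the adhesion molecule of endothelial adherens junctions (ENSMUSG00000031871, GRCm38 chromosome 8, 104101625 to 104144511, plus strand). Its count was 185 at the lowest, 225 at the median and 262 at the highest in WT control. In APP control the lowest, median and highest were 253, 271 and 400. Of the 6 APP control libraries 5 lay above the highest WT control library, and the ranges overlapped through the remaining one. The difference was 0.39 on the log2 scale (SE 0.12, DESeq2 adjusted p = 0.0286). It passed under 21 of 29 other settings. Without APP control 5 it was 0.36 (adjusted p = 0.0768), without APP control 3, its highest library, it was 0.29 (adjusted p = 0.131), and by edgeR's quasi-likelihood test the adjusted p was 0.0655.

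Flt1 encodes VEGF receptor 1, which binds VEGF-A, VEGF-B and placental growth factor (ENSMUSG00000029648, chromosome 5, 147561604 to 147726011, minus strand). In WT control it ran from 976 through a median of 1094 to 1185. In APP control it ran from 1270 through 1319 to 1550. The 2 groups did not overlap. Among the 10 genes, 1 separated the groups completely in this way, where every APP control library lay above every WT control library for 1.2% of all tested genes. The log2 fold change was 0.30 (SE 0.08, DESeq2 adjusted p = 0.00828), and it was 0.26 without APP control 5 (adjusted p = 0.0365).

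The promoter of Flt1, from 250 bases before to 50 bases after its start (RefSeq, GRCm38.p6, chr5:147725962-147726261, minus strand), is shown because Flt1 was the most stable of the differences. Capitals mark AGGAAG or its reverse complement CTTCCT, the core bound by ETS factors such as the endothelial regulators Erg and Fli1. The 6 letters occur on either strand in 35.4% of the 32851 promoters of this length, and in 3 of the 8 genes with a listed promoter (Abcb1a, Flt1 and Slco1a4). The window listed for Abcb1a (chr5:8566841-8567140) does not reach the GENCODE start of that gene, at 8660077. Cdh5 and Pecam1 are not listed there.
Flt1 promoter: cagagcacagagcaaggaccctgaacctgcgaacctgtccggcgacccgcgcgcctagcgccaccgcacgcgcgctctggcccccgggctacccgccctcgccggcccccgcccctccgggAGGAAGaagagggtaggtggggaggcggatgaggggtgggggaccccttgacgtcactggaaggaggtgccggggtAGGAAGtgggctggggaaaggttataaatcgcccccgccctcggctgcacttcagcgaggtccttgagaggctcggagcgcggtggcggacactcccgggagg

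Tek encodes the angiopoietin receptor TIE2 (ENSMUSG00000006386, chromosome 4, 94739289 to 94874976, plus strand). Its WT control libraries lay at 269, 314 and 366 (lowest, median and highest), and its APP control libraries at 329, 342 and 376. The ranges overlapped, although all 6 APP control libraries lay above the WT control median. Its log2 difference of 0.13 (SE 0.08) did not pass (DESeq2 adjusted p = 0.55).

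Pecam1, the adhesion molecule CD31 of endothelial contacts that is also found on platelets and leukocytes (ENSMUSG00000020717, chromosome 11, 106654217 to 106750628, minus strand), ran from 344 through 389 to 434 in WT control. In APP control it ran from 410 through 424 to 678, and the top value was APP control 5. The difference of 0.28 on the log2 scale (SE 0.13) did not pass (DESeq2 adjusted p = 0.287), and it was 0.14 without that library.

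The 2 tight junction genes did not pass either. Cldn5, the main claudin of brain capillaries (ENSMUSG00000041378, chromosome 16, 18776847 to 18778262, plus strand), ran from 408 through 535 to 643 in WT control and from 476 through 547 to 708 in APP control. Of the 6 APP control libraries 3 lay above the WT control median, and the ranges overlapped almost entirely. The log2 fold change was 0.06, with a 95% interval from -0.18 to 0.30 (DESeq2 adjusted p = 0.936), and without APP control 5 it was -0.02. Ocln, which encodes occludin (ENSMUSG00000021638, chromosome 13, 100496507 to 100552718, minus strand), ran from 141 through 167 to 246 in WT control and from 163 through 210 to 286 in APP control. Its log2 fold change of 0.26 (SE 0.16) did not pass (DESeq2 adjusted p = 0.477), and without APP control 3, its highest library, it was 0.16.

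Among the 4 transporters, Abcb1a and Slc2a1 came closest to the threshold. Abcb1a encodes the efflux pump P-glycoprotein (ENSMUSG00000040584, chromosome 5, 8660077 to 8748575, plus strand). It ran from 482 through 510 to 664 in WT control and from 552 through 627 to 834 in APP control. The upper end of the WT control range was WT control 5, the library high in Ttr, and the next highest lay below every APP control library. The log2 fold change was 0.30 (SE 0.11, DESeq2 adjusted p = 0.0867), and without WT control 5 it was 0.37 and passed (adjusted p = 0.00851). Without APP control 5, its highest library, it was 0.21 (adjusted p = 0.266). Reads of Abcb1a are uncertain, because 22.5% of its windows of 50 bases, the read length, also occur in Abcb1b, Abcb4 or the antisense gene Gm42686.

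Slc2a1 encodes the glucose transporter GLUT1 (ENSMUSG00000028645, chromosome 4, 119108711 to 119137983, plus strand). It ran from 1690 through 1811 to 2025 in WT control and from 1815 through 2108 to 3376 in APP control. The difference of 0.31 on the log2 scale (SE 0.11) did not pass (DESeq2 adjusted p = 0.0795), and it was 0.16 without APP control 5 (adjusted p = 0.0881). It passed under 3 of 29 other settings. These were without WT control 1 (0.34, adjusted p = 0.0486), without APP control 1 (0.37, adjusted p = 0.0182) and without APP control 6 (0.35, adjusted p = 0.0348). Slc2a1 shares 1.54% of its 50-base windows with the antisense gene Gm12868, whose reads cannot be told apart from its own in libraries without strand.

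Mfsd2a encodes a transporter of lysophospholipids that also holds down vesicle transport across the endothelium (ENSMUSG00000028655, chromosome 4, 122946850 to 122961188, minus strand). Its WT control libraries ran from 339 through 422 to 470, and its APP control libraries from 373 through 409 to 1110. The other 5 APP control libraries lay at 489 or lower. The log2 fold change was 0.36 (SE 0.20, DESeq2 adjusted p = 0.428) with APP control 5 and 0.0044 without it.

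Slco1a4 encodes the organic anion uptake transporter OATP1A4 (ENSMUSG00000030237, chromosome 6, 141805440 to 141856199, minus strand). It ran from 860 through 1136 to 1654 in WT control and from 981 through 1331 to 1987 in APP control. The ranges overlapped, and the log2 fold change of 0.20 (SE 0.18) did not pass (DESeq2 adjusted p = 0.729). It was 0.06 without APP control 5 and 0.33 without WT control 5, their groups' highest libraries. Of its 50-base windows 1.61% also occur in relatives such as Slco1a5 and Slco1a6. Within each group Slco1a4 spread widely, with a coefficient of variation of 23.7% (WT control), 26.7% (APP control) and 19.7% (APP anti-miR-mix).

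**Figure D2:**
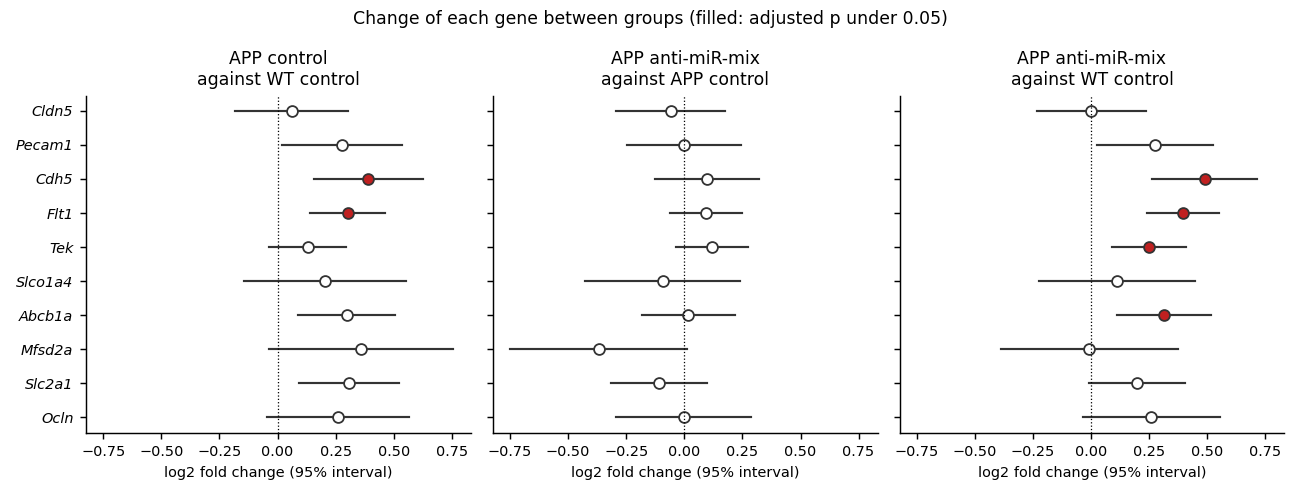
Log2 fold change of each gene (horizontal axis) with its 95% interval in 3 comparisons, filled where the DESeq2 adjusted p was under 0.05. The filled genes are 2 for APP control against WT control, 4 for APP anti-miR-mix against WT control and none between the transgenic groups.

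The second comparison asked whether inhibiting the 3 microRNAs moved the genes within APPPS1-21 mice. None of the 10 passed DESeq2, edgeR also called 0, and 0 had an unadjusted p under 0.05 by either tool. Across all tested genes DESeq2 called 0% and edgeR called 0 genes, with 552 and 572 at an unadjusted p under 0.05. The median log2 fold change of the 10 genes was -0.0019, beside -0.0015 over all genes, and 4 lay above 0 and 6 below. Since these comparisons share libraries, their values are only set side by side.

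The APP anti-miR-mix libraries overlapped APP control for all 10 genes. Flt1 ran from 1082 through 1517 to 1572 after the mix, with 6 of 7 libraries above the APP control median. Its log2 fold change was 0.09 (95% interval -0.06 to 0.25). Cdh5 ran from 260 through 338 to 348, with a log2 fold change of 0.10 (95% interval -0.12 to 0.32). Tek ran from 323 through 386 to 443, with a log2 fold change of 0.12 (95% interval -0.04 to 0.28), and 4 of 7 libraries lay above the highest APP control library. The lowest library after the mix was replicate 2 for Flt1 and Tek and replicate 5 for Cdh5.

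Pecam1 ran from 364 through 471 to 600 and differed by -0.0019 on the log2 scale (95% interval -0.25 to 0.24). Cldn5 ran from 427 through 560 to 634 and differed by -0.06 (95% interval -0.29 to 0.17). Ocln ran from 166 through 215 to 264 and differed by -0.0020 (95% interval -0.29 to 0.29). For these junction genes the intervals bound the difference without showing that the groups were equal.

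Among the transporters, Abcb1a ran from 557 through 656 to 726 (log2 fold change 0.02, 95% interval -0.18 to 0.22). Slco1a4 ran from 855 through 1279 to 1642 (log2 fold change -0.09, 95% interval -0.43 to 0.24). Slc2a1 ran from 1997 through 2078 to 2232 (log2 fold change -0.11, 95% interval -0.32 to 0.10), in the narrowest spread of any gene and group, at a coefficient of variation of 3.61%. Mfsd2a had the largest difference of the 10, at -0.37 (95% interval -0.75 to 0.01, unadjusted p = 0.0585), and it ran from 370 through 418 to 442 after the mix. That difference was -0.01 on the log2 scale without APP control 5. The median over the 10 genes was 0.07 without that library, with 9 of 10 above 0 and 0 called.

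The inhibited microRNAs and the oligonucleotides given against them are printed because their seeds decide which transcripts could pair with them. Seeds (bases 2 to 8) are in capitals in the mature sequences from RefSeq (GRCm38.p6). In the inhibitors, capitals mark the bases opposite the seed.
miR-181a-5p (Mir181a-1, chr1:137966468-137966490, plus strand, and Mir181a-2, chr2:38852741-38852763, plus strand): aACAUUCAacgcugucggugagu
miR-146a-5p (Mir146, chr11:43374435-43374456, minus strand): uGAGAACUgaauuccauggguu
miR-148a-3p (Mir148a, chr6:51269829-51269850, minus strand): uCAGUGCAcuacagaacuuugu
inhibitor of miR-181a-5p: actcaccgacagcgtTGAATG
inhibitor of miR-146a-5p: acccatggaattcAGTTCTC
inhibitor of miR-148a-3p: caaagttctgtagTGCACT
control oligonucleotide for the inhibitors: taacacgtctatacgccca

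The complement of each seed, 7 letters in the sense direction, was looked for in the annotated 3′ UTRs (GENCODE M21) of the 10 genes. A match to miR-181a-5p occurred in 2 of the 10 genes (Flt1 and Abcb1a), beside 19.2% of 15397 tested genes with a 3′ UTR. For miR-146a-5p it was 1 of 10 (Cdh5), beside 13.4%, and for miR-148a-3p 4 of 10 (Cdh5, Flt1, Mfsd2a and Slc2a1), beside 15.8%. Cldn5, Pecam1, Tek, Slco1a4 and Ocln held no match to any of the 3. The matches followed by an A in the transcript are printed below, with the letters opposite the seed in capitals. A match of letters is not a shown site, and none of the 5 genes with a match passed the test of the mix against control oligonucleotides.
Flt1, miR-181a-5p, base 2564 of a 3′ UTR of 2616 bases: tctagtcatgaTGAATGTatttcacatat
Flt1, miR-148a-3p, base 346 of the same 3′ UTR: tcatggctgcaTGCACTGacctgctctgt
Cdh5, miR-146a-5p, base 1278 of 1513: tataagactctAGTTCTCacagacataga
Mfsd2a, miR-148a-3p, base 80 of 391: ctctttgccctTGCACTGagcagctgttc
Slc2a1, miR-148a-3p, base 647 of 1537: ctagtctcctgTGCACTGagggccacaca

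The third comparison set APP anti-miR-mix beside WT control. The higher genes were 4, Cdh5, Flt1, Tek and Abcb1a, and 0 were lower, where 5.59% of all tested genes were called higher. The median log2 fold change of the 10 was 0.25, beside -0.02 over all genes, and 9 lay above 0. Not one of the 10 separated the 2 groups completely, where every APP anti-miR-mix library lay above every WT control library for 2.52% of tested genes.

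Cdh5 was 1.40-fold higher (log2 0.49, SE 0.12, DESeq2 adjusted p = 0.000789), and 6 of 7 libraries lay above the highest WT control library. Flt1 was 1.32-fold higher (log2 0.40, SE 0.08, adjusted p = 3.34e-05), again with 6 of 7 libraries above, and APP anti-miR-mix 2 at 1082 lay within the WT control range. Both passed under all 29 alternative settings of the analysis. Tek was 1.19-fold higher (log2 0.25, SE 0.08, adjusted p = 0.0279) and Abcb1a 1.24-fold higher (log2 0.31, SE 0.10, adjusted p = 0.0299). These latter 2 were less firm: Tek passed under 17 of the 29 settings and Abcb1a under 21.

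The remaining genes did not pass by DESeq2. Pecam1 differed by 0.28 (SE 0.13, adjusted p = 0.176), Ocln by 0.26 (SE 0.15, adjusted p = 0.339) and Slco1a4 by 0.11 (SE 0.17, adjusted p = 0.812). Cldn5 differed by 0.0014 (95% interval -0.23 to 0.24) and Mfsd2a by -0.0071 (95% interval -0.39 to 0.38). Slc2a1 differed by 0.20 (SE 0.11, adjusted p = 0.276), although 6 of 7 libraries lay above the highest WT control library. When APP control 5, which belongs to neither group but enters the shared estimate of spread, was left out, the same 0.20 had an SE of 0.05 and passed (adjusted p = 0.00377).

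Other genes of the vessel wall and barrier were read as lists. Of 25 further endothelial identity genes, 24 lay above 0 in APP control against WT control, with a median of 0.21, and 22 did in APP anti-miR-mix against WT control, with a median of 0.20. Their summed count peaked in APP control 5 at 13659, beside an APP control median of 10913 and a WT control maximum of 11097. The list medians were not recomputed without that library. The called genes were 1 and 2 of 25, close to the 3.66% and 5.59% of all tested genes called higher. In APP control it was Fli1, an ETS factor that is also present in blood and microglial cells, at 0.75 (SE 0.17, adjusted p = 0.000473). After the mix Fli1 (0.78, adjusted p = 6.09e-05) and Cd34, a sialomucin of endothelium (0.34, adjusted p = 0.00901), passed. Among 12 tight junction partners, F11r, a junctional adhesion molecule also found on platelets and leukocytes, and Cgnl1, encoding paracingulin, were higher by 0.78 and 0.29 in APP control, and the APP anti-miR-mix values were 0.81 and 0.36. The microglia and macrophage list had 7 of 10 genes higher in APP control and 9 of 10 after the mix. Its summed count was 10058 to 15536 across WT control, 14301 to 31036 across APP control and 21015 to 32308 across the APP anti-miR-mix libraries, with the lowest APP control library inside the WT control range. Among the genes of smallest adjusted p in it were Tyrobp (1.97 and 2.03), Csf1r (0.92 and 0.92) and Cx3cr1 (0.89 and 0.95). Whether these cells contribute to Fli1 and F11r was not tested.

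Of 17 other barrier transporters 16 could be tested, and 2 were higher in APP control and 6 after the mix, with none lower, beside 3.66% and 5.59% of all tested genes called higher. Abcb1b, the other P-glycoprotein gene of mice, which shares stretches with Abcb1a, differed by 0.47 (SE 0.12, adjusted p = 0.00226) and 0.54 (adjusted p = 5.97e-05). Abcc4, a multidrug efflux pump, was higher by 0.33 in APP control (adjusted p = 0.00907). In APP anti-miR-mix Slc7a5, the large neutral amino acid carrier, was higher by 0.33 (adjusted p = 1.97e-06), the organic anion transporter Slc22a8 by 0.65 and the efflux pump Abcg2 by 0.33. Slc22a8 is also expressed by the meninges. The meninges and fibroblast list had 1 of 12 genes higher in APP control (Slc47a1, 1.83), where its median was 0.84 and 8 of 12 had an unadjusted p under 0.05. After the mix 8 of 12 were higher and the median was 1.09, led by Slc22a6 (1.90), Slc13a4 (2.21), Slc47a1 (1.83) and Bgn (0.60). Its sums were 2415 to 5725 across WT control, 3144 to 8396 across APP control and 3769 to 8596 across the APP anti-miR-mix libraries, and the part of this tissue in the transporter values was not tested.

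The ligands and receptors around Flt1 and Tek gave 1 of 16 genes in either comparison with WT control, close to the 3.66% and 5.59% of all tested genes called higher. This was Angpt1, the ligand of Tek, higher by 0.60 in APP control (SE 0.15, adjusted p = 0.00390) and by 0.79 after the mix (SE 0.15, adjusted p = 5.76e-06). Angpt1 ran from 124 through 150 to 227 in WT control. Its APP control libraries ran from 201 through 245 to 297, and its APP anti-miR-mix libraries from 202 through 275 to 363. The transgenic groups overlapped WT control at their lower ends. Of 20 genes of the Wnt pathway that sustains the barrier, Lrp5, a co-receptor, was higher by 0.51 and 0.47 and Apcdd1, a Wnt-induced inhibitor, by 0.56 and 0.53. Lef1, a transcription factor of the pathway, passed in APP anti-miR-mix alone among these comparisons with WT control (0.77, adjusted p = 0.00131), while its difference between the transgenic groups was 0.56 with an adjusted p near 1.

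Of 8 caveolar and transcytosis genes 7 lay above 0 in either comparison with WT control, with medians of 0.05 and 0.26. In the endothelial activation list 10 of 12 genes passed the filter on low counts, and DESeq2 gave no p for Vwf and Lrg1 among them. Of the rest, Ch25h, which makes 25-hydroxycholesterol and is also made by microglia, was higher by 1.91 and 2.16, and Il1r1, the interleukin-1 receptor, by 0.93 in APP control (adjusted p = 0.00435). Ch25h ran from 12.6 to 52.0 in WT control and from 71.4 to 151 in APP control, with no overlap. Il1r1 ran from 194 through 257 to 453 in APP control, its highest in APP control 5, beside 96.3 to 241 in WT control. Of 14 pericyte and smooth muscle genes, Notch3 was higher by 0.27 in APP control (adjusted p = 0.0428) and by 0.24 after the mix, and the smooth muscle myosin Myh11 (0.76) and the pericyte peptidase Anpep (0.62) passed in the latter. These were 1 and 3 of 14 genes. Myh11 ran from 151 through 167 to 402 after the mix, its highest in APP anti-miR-mix 4, beside 106 to 139 in WT control. Among astrocyte genes Gfap passed, at 1.44 and 1.40, and it was 1 of 10. Over all tested genes 3.66% and 5.59% were called higher.

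No gene of the blood, choroid plexus or hippocampal subfield lists passed in any comparison, where 8 of 12 choroid plexus genes passed the filter and DESeq2 gave no p for Ttr. Their smallest adjusted p against WT control belonged to Hba-a1 (0.83, adjusted p = 0.114), Clic6 (-1.04, adjusted p = 0.272) and Bok (0.30, adjusted p = 0.419) in APP control, and after the mix to Hba-a1 (0.63, adjusted p = 0.209), Kl (-0.32, adjusted p = 0.398) and Man1a (-0.51, adjusted p = 0.0504). The blood list sum reached 979 in WT control, 2136 in APP anti-miR-mix 4 and 2715 in APP control 5, and its median log2 fold change against WT control was 0.81 and 0.48. None of the lists had a gene past the threshold between the transgenic groups. There the smallest adjusted p of each list was near 1, and among these genes were Esam (-0.17), Cldn1 (0.50), Slc7a5 (0.16), Aplnr (0.88), Lef1 (0.56), Ptgs2 (-0.62), Ndufa4l2 (0.29), Alas2 (-0.43), Clic6 (0.73), Slc22a6 (0.80), Gja1 (0.14), Mrc1 (0.36) and Wfs1 (0.58). Counts were low for Aplnr (means of 5.08 in APP control and 9.48 after the mix) and Clic6 (14.1 and 23.4).

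**Figure D3:**
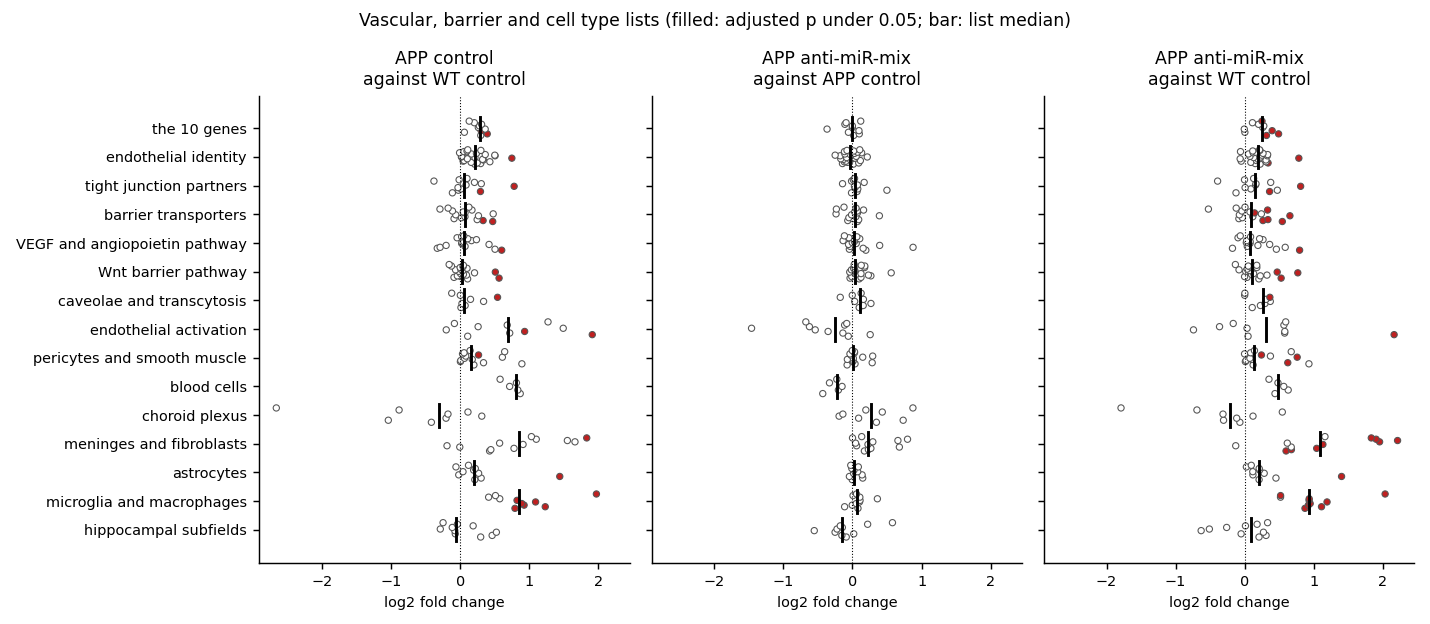
Log2 fold change (horizontal axis) of every tested gene of each list, 1 point per gene, filled where the DESeq2 adjusted p was under 0.05, with the list median as a bar. The 10 genes have medians of 0.29, -0.0019 and 0.25 in the 3 comparisons, and no point is filled between the transgenic groups.

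After removal of group means, the Pearson correlation of log2 counts over the 19 libraries had a median of 0.60 among the 45 pairs of genes, from 0.03 to 0.92. Without APP control 5 the median was 0.51 and the lowest -0.53, between Mfsd2a and Slco1a4. These libraries share depth and dissection, so the values are descriptions. The 5 genes outside the set most like the mean of the 10 were Adgrf5 (r = 0.95), Podxl (0.92), Cd93 (0.91), Cxcl12 (0.86) and Epas1 (0.86).

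APP control 5 differed from its group by unequal amounts. Mfsd2a was 2.66 times the mean of the other 5 APP control libraries, Slc2a1 1.65 times, Slco1a4 1.62 times and Pecam1 1.57 times. Abcb1a was 1.36 times, Cldn5 1.34 times, Flt1 1.18 times, Ocln 1.14 times, Cdh5 1.12 times and Tek 1.10 times that mean. Of the genes around them, haemoglobin Hbb-bs was 3.05 times and the erythroid enzyme Alas2 3.86 times the mean of the others, and the endothelial activation list summed to 9975, the highest in its group. The part of blood RNA in these values was not tested.

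**Figure D4:**
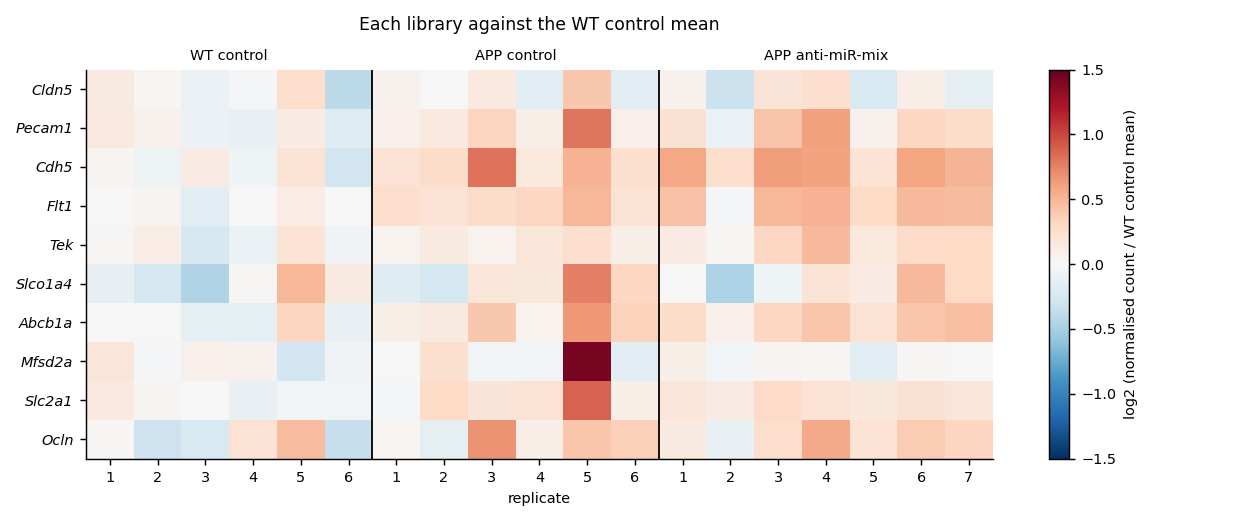
Log2 ratio of each normalised count to the WT control mean of its gene (colour, red above and blue below the WT control mean) for the 10 genes (rows) in the 19 libraries (columns, by group and replicate). APP control 5 holds the deepest red, for Mfsd2a at 1110, and Cldn5 mixes both colours in every group.

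The promoters of Mfsd2a and Slc2a1 are shown because these 2 genes stood furthest out in APP control 5. Capitals mark ACGTG or its reverse complement CACGT, the core of hypoxia response elements and of other E-box-like elements. The 5 letters occur on either strand in 19.6% of promoters of this length, and in 2 of the 8 listed genes, these being Mfsd2a and Slc2a1. A match is a description of the letters in this window.
Mfsd2a promoter (RefSeq, GRCm38.p6, chr4:122961139-122961438, minus strand): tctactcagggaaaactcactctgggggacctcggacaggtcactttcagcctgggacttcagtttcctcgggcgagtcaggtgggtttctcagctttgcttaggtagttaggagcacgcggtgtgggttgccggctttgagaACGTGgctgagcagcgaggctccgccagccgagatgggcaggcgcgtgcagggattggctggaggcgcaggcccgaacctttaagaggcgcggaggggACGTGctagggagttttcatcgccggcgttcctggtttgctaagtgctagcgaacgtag
Slc2a1 promoter (RefSeq, GRCm38.p6, chr4:119108495-119108794, plus strand): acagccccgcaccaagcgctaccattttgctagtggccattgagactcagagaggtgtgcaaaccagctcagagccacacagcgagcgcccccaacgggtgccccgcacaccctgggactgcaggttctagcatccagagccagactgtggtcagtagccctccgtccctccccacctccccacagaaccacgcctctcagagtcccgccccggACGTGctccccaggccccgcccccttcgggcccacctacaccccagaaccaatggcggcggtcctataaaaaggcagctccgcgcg

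The normalised table that accompanies the counts differs from log2 values of depth-scaled counts by a slope per gene multiplied by a whole number per library, from 1 to 5, and what the number stands for is not given in the sources used here. Slco1a4 was ordered by it from number 2 to number 4, and not at numbers 1 and 5. Its 3 libraries of number 1 lay between 1038 and 1182 and its 5 of number 2 between 855 and 1128. The 5 of number 3 lay between 1188 and 1359, and the 5 of number 4 between 1443 and 1987. The single library of number 5, WT control 6, was at 1288. From number 2 to number 4 the ranges of Slco1a4 did not overlap, whichever group the libraries belonged to. How many of all tested genes are ordered in this way was not counted, so the order is not shown to be particular to Slco1a4.

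Ocln had no such order over all numbers, since it lay at 182 to 196 for number 1, 144 to 215 for number 2, 191 to 286 for number 3, 224 to 246 for number 4 and 141 for number 5. Abcb1a lay at 527 to 642 for number 1, 483 to 656 for number 2, 482 to 709 for number 3, 664 to 834 for number 4 and 492 for number 5. The mean number was 2.83 (WT control), 2.83 (APP control) and 2.71 (APP anti-miR-mix), but number 5 occurred in WT control 6 alone, so the factor takes that library out of the comparison. With the number as a factor in the fit, the difference of Slco1a4 between APP control and WT control was 0.09 with an SE of 0.09, where it had been 0.20 with an SE of 0.18, and it did not pass in either. The difference of Ocln was 0.10 (SE 0.12) with the number and 0.26 without it. Flt1 still passed (0.27, adjusted p = 0.0360), and Cdh5 did not (0.32, adjusted p = 0.168). Cdh5 also did not pass when WT control 6 was left out without the factor (0.34, adjusted p = 0.112).

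The Flt1 values within each number are given as levels, since APP control and WT control did not overlap over all libraries and their order within any number was thereby fixed. At number 1, WT control 1 stood at 1095, APP control 1 at 1312 and APP anti-miR-mix 1 at 1484. At number 2 the WT control libraries were at 1123 and 976, the APP control library at 1276 and the APP anti-miR-mix libraries at 1082 and 1542. At number 3 WT control was at 1091, APP control at 1327 and 1357, and APP anti-miR-mix at 1572 and 1341. At number 4 WT control was at 1185, APP control at 1550 and 1270, and APP anti-miR-mix at 1533 and 1517. The APP anti-miR-mix libraries lay above the WT control libraries of their own number, apart from 1 library of number 2.

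**Figure D5:**
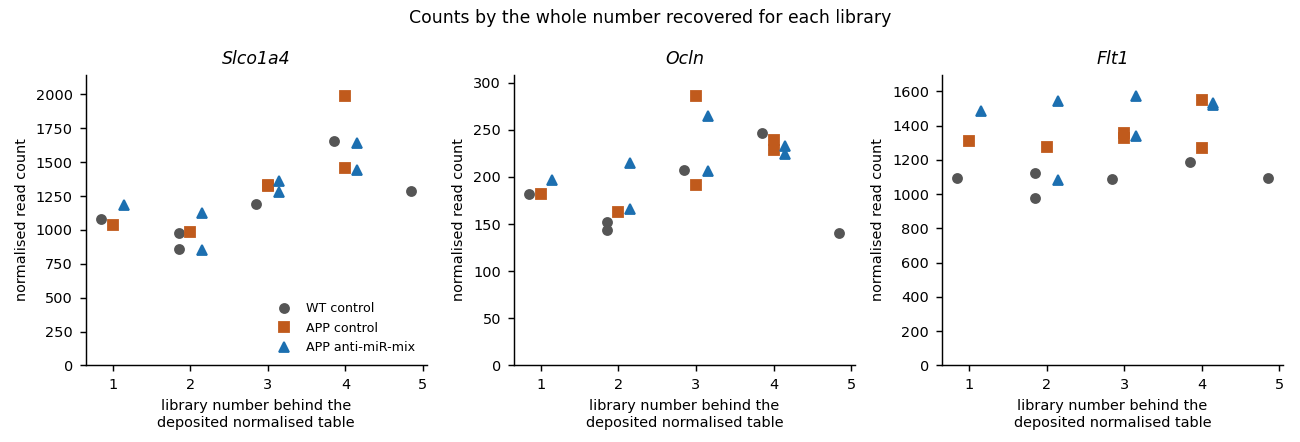
Normalised read counts (vertical axes, linear, from 0) of Slco1a4, Ocln and Flt1 against the whole number of each library (horizontal axes) in WT control, APP control and APP anti-miR-mix. Slco1a4 climbs from at most 1128 at number 2 to at least 1443 at number 4 in all groups, while Flt1 holds APP control libraries between 1270 and 1550 and WT control libraries between 976 and 1185 over all numbers.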

How the data were processed

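CA1 RNA was sequenced as single-end reads of 50 bases (polyA RNA, TruSeq, which keeps no strand) in 19 libraries, grouped by the sample titles. Per the labels and the study's methods, the authors aligned reads to mm10 with STAR 2.5.2b and counted them per gene with featureCounts (Subread 1.5.1), and the deposited raw counts per gene were the values used here. The deposited normalised table holds log2 values, log2(CPM + 1) less a slope per gene times a whole number per library, and served only to recover that number and for limma as an alternative. The annotation release behind the counts is not given in the sources used here. Identifiers were matched to GENCODE M21 (48349 of 48709), whose GRCm38 coordinates are printed.

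DESeq2 1.42.0 was fitted to all 19 libraries and 3 groups at once, on 19297 genes with at least 5 counts in 50% of libraries, with Wald tests, unshrunken log2 fold changes and Benjamini-Hochberg adjusted p-values, called under 0.05. It replaced no count of the 10 genes, and it gave no p for 3 listed genes with a replaced count (Vwf, Lrg1 and Ttr). edgeR 4.0.16 (TMM, quasi-likelihood) and limma 3.58.1 were alternatives. Both count tools were tested on simulated data. Depth was 19362343 to 37018917 counts, and for the less abundant of the 10 genes counting error can be a large part of the spread between libraries. Replicates differed beyond counting error in all 51 pairs within groups (chi-square per gene of 4.60 or more), so no library was taken to be another one deposited again.

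The 10 genes and the lists were chosen with earlier results of these data known. Of each other list, at most the 4 genes of smallest adjusted p past the threshold per comparison are named, or the 1 of smallest adjusted p where none passed. Hbb-bs, Alas2, Vwf, Lrg1, Thy1, Xist, Ddx3y, Ttr and the near-identical relatives were named after their values were seen. A few genes that this rule names are not reported here.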

Additional observations from a re-analysis of the deposited data

Results flagged for a closer look

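Within 30 sets of libraries (10 genes in 3 groups), 5 had a highest library whose gap to the next exceeded Dixon's 95% critical value, where chance gives about 1 in 20, or 1.5 sets. APP control 5 held 4 of the 5, namely Mfsd2a at 1110, Slc2a1 at 3376, Pecam1 at 678 and Flt1 at 1550 normalised counts. The fifth was Abcb1a in WT control 5, at 664, where the other 5 WT control libraries lay at 532 or lower.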

How the results depend on the processing

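The log2 fold changes of the 10 genes and the counts of called genes were recomputed under 29 other settings (those of the other lists and the TPM levels were not). The difference of Flt1 passed in all of them in both comparisons with WT control (adjusted p from 4.06e-05 to 0.0365 in APP control), and no gene that passed turned its direction. In APP control against WT control 2 of the 10 genes were called, against 1 by edgeR, with only the 2 groups compared and with the library number as a factor, since Cdh5 did not pass there (adjusted p = 0.0655, 0.0617 and 0.168). Leaving out 1 library at a time gave 1 to 4 genes: 1 without WT control 2, 4 or 6 or APP control 3 or 5, and 4 without APP control 1. All 10 genes lay above 0, except that Cldn5 lay below without WT control 6, without APP control 5 and with the library number. In APP anti-miR-mix against WT control 4 were called, against 2 with the Xist level as a term, and 2 to 5 with 1 library left out, with 2 without WT control 3, 4 or 6 or APP anti-miR-mix 4, 6 or 7.

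Between the transgenic groups 0 genes of the whole table were called, against 3 with only those groups, 1 with the replicate block, 4 with the Xist term and 0 to 3 with 1 library left out, and none of the 10 genes was among them. Same-numbered libraries of different groups correlated from -0.12 to 0.35 (10 of 18 pairs over 0.1, median 0.11, beside 21 of 102 other-numbered pairs, median -0.01), and 5 of 18 libraries correlated best with their own number. As not every pair was over 0.1, the numbers were not taken as pairs. A structure shared by only some of the pairs would not meet that rule. With the replicate block 3 of the 10 were called in APP control against WT control, with Abcb1a added (adjusted p = 0.0434). After the mix against WT control 3 were called, with Tek lost (adjusted p = 0.0702). The causes were not tested. SEs ran from 0.08 for Flt1 to 0.20 for Mfsd2a on the log2 scale, so smaller differences may go undetected.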
